A study of Mus musculus with 4 samples.

Results

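Expression of p53 target genes was compared between skin melanocyte cultures that lack the aryl hydrocarbon receptor (AhR) and cultures that have it. Melanocytes make the pigment of skin and hair. The set holds 10 genes, namely Trp53, which encodes p53, and its targets Mdm2, Cdkn1a, Gadd45a, Btg2, Ccng1, Pmaip1, Bbc3, Perp and Sesn2. Members were taken as the rows of the deposited table whose platform annotation gives one of these symbols alone. This found 9 of the 10 genes, in 15 probe sets, among 12393 genes measured on the arrays, and no level is given for Trp53.

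The tested cultures came from 2 female AhR knockout mice of the strain labelled AhRtm1Bra, in which exon 2 of Ahr is deleted, and the comparison cultures from 2 female wild-type C57BL/6 mice. Epidermal cells from tail skin were grown for 6 to 8 weeks in a serum-free medium that favours melanocytes, and all 4 cultures were visibly pigmented at the end, per the labels. The age of the mice is not given. Each array holds the RNA of 1 mouse, so n is 2 in both groups, and precision is limited by that number. The allele is a whole-body deletion, so every cell type in a knockout culture lacks the intact gene, and the labels state no sort beyond the selection by medium.

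AhR is a transcription factor that is switched on by dioxins and by products of ultraviolet light. p53 is a transcription factor that becomes stable when DNA is damaged or cells are stressed. It then turns on genes that stop the cell cycle, repair DNA, start cell death or restrain growth, and it also turns on Mdm2, whose protein marks p53 for destruction and so closes a feedback loop. In skin, p53 is known for the response of keratinocytes and melanocytes to sunlight, including tanning.

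p53 binds DNA as a tetramer, to a pair of 10-base half-sites, and the nearby upstream sequence of the members is shown for those that hold a match. RefSeq windows of 250 bases before to 50 after an annotated start (build GRCm38.p6) were searched for 8 members, in 11 windows. Perp and Pmaip1 were not searched, so the counts of matches below say nothing about them. The p53 half-site consensus, which is its own reverse complement and was searched on both strands, matched 5 of the 11 windows (45.5%), against 8.36% of all 32851 windows. The matches lay before starts of Cdkn1a, Mdm2, Gadd45a, Ccng1 and Trp53. A pair of half-sites no more than 13 bases apart was found in 1 member window, upstream of Cdkn1a, and in 0.0731% of all windows. Only exact matches were searched, so near matches are neither counted nor marked. The related factors p63 and p73 recognise the same consensus, so a match names no factor. The 250 bases upstream of the start are given 5′ to 3′ on the gene's own strand for the 4 measured genes with a match, and the capitals mark the half-sites.
Cdkn1a, chr17:29090729-29090978, plus strand: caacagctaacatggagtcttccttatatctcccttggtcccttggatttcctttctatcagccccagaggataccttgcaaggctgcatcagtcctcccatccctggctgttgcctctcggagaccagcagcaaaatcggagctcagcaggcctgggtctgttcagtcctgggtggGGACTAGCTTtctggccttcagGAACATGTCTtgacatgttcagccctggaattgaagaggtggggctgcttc
Mdm2, chr10:117710759-117711008, minus strand: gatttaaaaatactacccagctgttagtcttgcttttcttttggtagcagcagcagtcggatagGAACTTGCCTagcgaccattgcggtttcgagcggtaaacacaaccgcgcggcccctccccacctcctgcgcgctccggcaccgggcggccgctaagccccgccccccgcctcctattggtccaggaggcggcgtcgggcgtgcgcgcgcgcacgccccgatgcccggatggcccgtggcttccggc
Gadd45a, chr6:67037408-67037657, minus strand: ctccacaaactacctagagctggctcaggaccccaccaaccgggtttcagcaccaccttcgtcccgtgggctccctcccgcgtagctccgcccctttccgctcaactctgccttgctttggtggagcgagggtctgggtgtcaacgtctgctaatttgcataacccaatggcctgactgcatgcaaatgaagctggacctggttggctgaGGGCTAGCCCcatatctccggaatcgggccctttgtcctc
Ccng1, chr11:40755287-40755536, minus strand: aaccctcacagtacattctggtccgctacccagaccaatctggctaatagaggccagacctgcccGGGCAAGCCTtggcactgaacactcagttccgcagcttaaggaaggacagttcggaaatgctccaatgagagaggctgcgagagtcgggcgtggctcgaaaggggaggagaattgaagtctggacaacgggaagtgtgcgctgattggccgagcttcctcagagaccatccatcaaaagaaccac
The Cdkn1a stretch belongs to the more upstream of its annotated starts, which lie 2790 bases apart, and its half-sites begin 73 and 51 bases before that start. The unmarked bases tgacatgttc, which directly follow the second of these half-sites, depart from the consensus at their first base only. The Mdm2 half-site begins 186 bases before the start, that of Ccng1 185 and that of Gadd45a 40 bases. The window at the other Cdkn1a start and the windows of Btg2, Bbc3 and Sesn2 held no match to these letters. The core of the AhR binding element, GCGTG on either strand, was found in 7 of the 11 windows (63.6%), against 32.4% of all windows. These were windows of Bbc3, Mdm2, Ccng1, Btg2 and Cdkn1a. The 3 Bbc3 windows lie at 3 annotated starts and 2 of them overlap, and GCGTG is also part of elements bound by hypoxia-inducible factors. With 2 GCGTG matches, the Mdm2 window held them 49 and 36 bases before its start.

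The arrays themselves were checked first. The brighter Ahr probe set read 241 and 843 in AhR knockout 1 and 2, against 825 and 874 in wild type 1 and 2, so it was lower in a single knockout array (log2 difference -0.88 ± 0.53, SE, adjusted p = 0.37 in limma). The position of its probes relative to exon 2 was not analysed here, so this reading is no check on the genotype. The 3' to 5' signal ratio of the Gapdh control probe sets, which rises with shortened RNA, was 11.9 in AhR knockout 2, against 1.98 to 2.85 on the other 3 arrays. The melanocyte markers Dct, Tyrp1 and Pmel, which are among the brightest of that list, read between 8478 and 32201 in every culture. The summed signal of 12 melanocyte markers was 85864 and 110306 in the knockout cultures, against 73702 and 57038 in the wild-type cultures. Of these markers 9 had higher and 3 lower values in knockout. The summed signal of 12 endothelial markers was 8412 and 3621 in the knockout cultures, against 16178 and 19322 in the wild-type cultures. In bulk RNA, fewer cells of a type and less RNA per cell cannot be told apart. Keratinocyte markers summed to 1554 and 365 in the knockout cultures, against 245 and 299 in wild type, and the defining Krt14 read 539 in AhR knockout 1 and 10.9 to 30.8 elsewhere.

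Pmaip1 fell in the AhR knockout cultures, Mdm2 and Gadd45a were lower on both knockout arrays without passing the test, and Cdkn1a, Sesn2 and Bbc3 were higher on both without passing. Of the 9 measured members, all of which passed the filter on low signal, 1 fell and 0 rose at an adjusted p under 0.05 in limma, where 0.753% of 7436 tested genes fell and 0.202% rose. At an unadjusted p under 0.05 there were 3 lower members (Pmaip1, Mdm2 and Gadd45a) and 1 higher (Cdkn1a), against 12.9% and 7.68% of all tested genes. The groups did not overlap for 6 members, 3 lower and 3 higher, against 26.7% and 28.7% of all tested genes. By sign alone 6 of the 9 were lower, against 49.7% of all tested genes. With 9 genes these shares describe the members and are no test of the set. The filter used the mean over all 4 arrays, whose lowest tested value was 81.1. The knockout mean of Pmaip1 and the wild-type mean of Bbc3 lay below that value, so each was tested through the group in which it was high. The median log2 difference was -0.78 over the members and 0.0055 over all tested genes, and the knockout arrays taken singly gave 0.0382 (AhR knockout 1) and -1.16 (AhR knockout 2). The sign of the members' median thus differed between the knockout arrays. An exact permutation of 2 against 2 arrays cannot give a p below 0.333, so p-values rest on limma, which borrows the spread across genes.

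**Figure D1:**
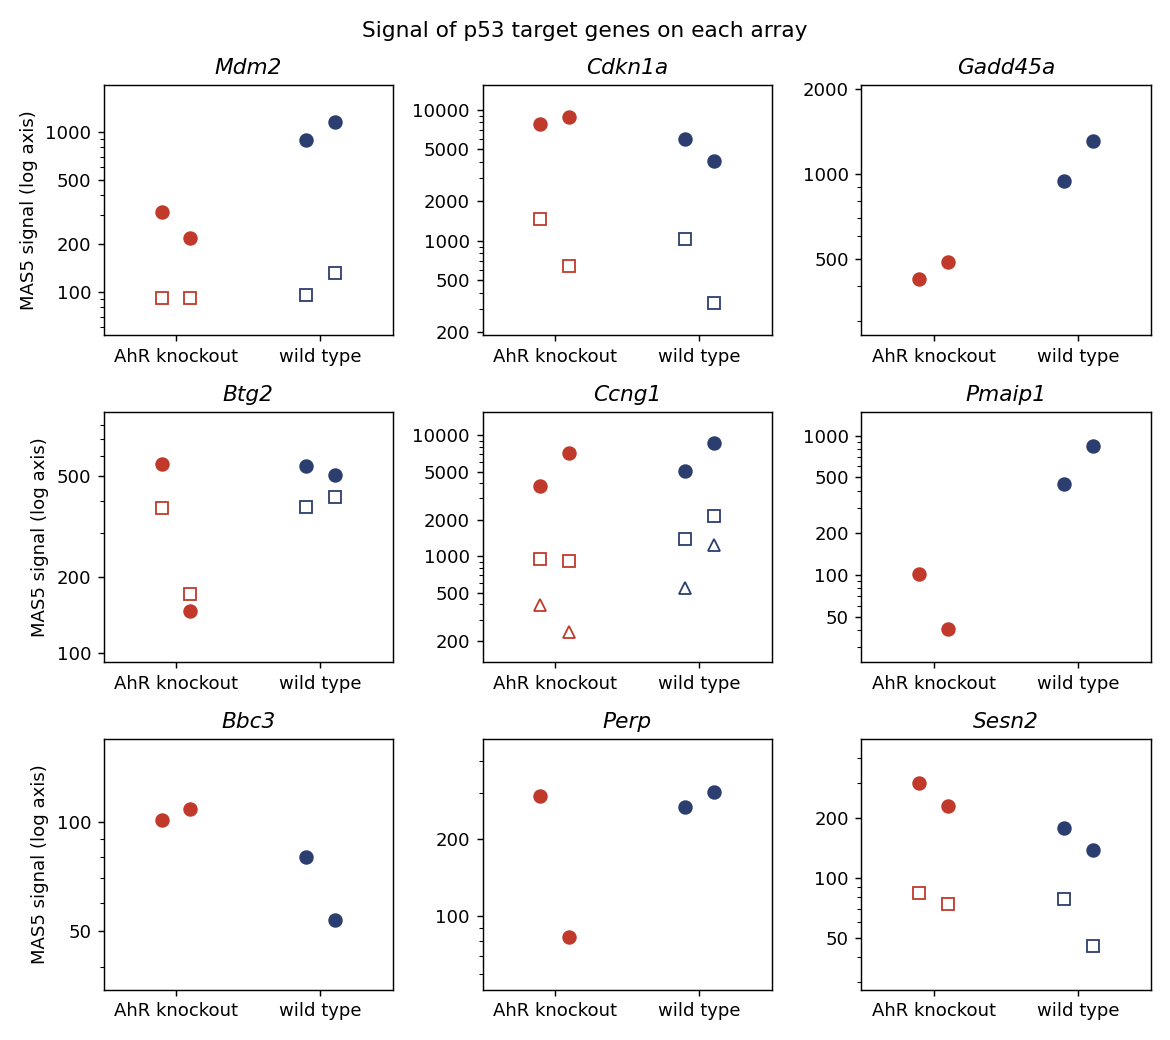
MAS5 signal (log axis, arbitrary units) of the 9 measured p53 target genes, with 1 point per array and probe set, AhR knockout arrays in red and wild-type arrays in blue. Filled circles are the brightest probe set and open squares and triangles the others. For Pmaip1, Mdm2 and Gadd45a the filled knockout points lie below both wild-type points, and for Cdkn1a, Sesn2 and Bbc3 above them.

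Among the cell death genes, Pmaip1 had the largest difference of any member. Its product, NOXA, is a BH3-only protein that neutralises the survival protein MCL1. Its signal was 101 and 40.8 in AhR knockout 1 and 2, against 446 and 845 in wild type 1 and 2. Both knockout values lay far below both wild-type values, and the groups averaged 70.8 ± 42.4 in knockout cells and 645 ± 282 in wild-type cells (SD, n = 2 each). The log2 difference was -2.95 ± 0.47 (SE), which is 7.74-fold lower on the log2(signal + 16) scale, with adjusted p = 0.031 in limma, and it ranked 22 of 7436 genes by p. Its knockout mean of 70.8 lay below the lowest tested mean, and AhR knockout 2 lay below that array's median of 94.0. With no detection calls at hand, the size of the fold is uncertain. With each knockout array taken singly the difference was -2.43 and -3.47. The call itself was near the threshold, with adjusted p = 0.051 after quantile normalization, 0.051 with the top 40% of genes kept, 0.055 without wild type 2, 0.056 with every probe set fitted by itself and 0.19 with no filter on low signal. Endothelial markers were lower in the same cultures (above), and their part in this difference was not tested.

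Bbc3 encodes PUMA, the other BH3-only protein of the set, which binds all survival members of the BCL2 family. Its signal was low, at 101 and 109 in the knockout arrays, against 80.3 and 53.8 in the wild-type arrays. Its mean over the arrays, 85.9, stood just above the lowest tested mean of 81.1. Both knockout values were above both wild-type values, yet the log2 difference of 0.56 ± 0.37 did not pass (adjusted p = 0.41 in limma). The 2 BH3-only genes thus lay on opposite sides of 0, and the difference between them was not tested.

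Perp encodes a membrane protein that joins cells through desmosomes in skin and was first known as a p53 effector in cell death. It read 293 and 83.3 in AhR knockout 1 and 2, against 267 and 304 in wild type 1 and 2. AhR knockout 1 lay between the wild-type values and AhR knockout 2 alone was low. The log2 difference was -0.78 ± 0.51 (adjusted p = 0.40 in limma), and against the wild-type mean it was 0.0382 in AhR knockout 1 and -1.60 in the second knockout array. AhR knockout 2 had the high 3' to 5' ratio, whose part in this value was not tested.

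Mdm2, the ubiquitin ligase that keeps p53 low and is itself a p53 target, was next in size. Its brighter probe set read 316 and 218 in the knockout arrays, against 882 and 1150.25 in the wild-type arrays. The groups were well apart, with means of 267 ± 69.6 in knockout cells and 1016 ± 189.5 in wild-type cells (SD, n = 2 each), and the log2 difference was -1.88 ± 0.38, or 3.67-fold. It missed the threshold narrowly, with adjusted p = 0.055 in limma. The dimmer probe set read 92.0 and 91.2 in knockout, against 95.04 and 131 in wild type, and its log2 difference was -0.25 ± 0.36, so the probe sets of this gene disagree in size. The array medians were 89.5 and 94.0 in knockout, and 96.8 and 98.4 in wild type. The dimmer probe set thus read near the median on all arrays but wild type 2. With no detection calls at hand, the size of its difference is uncertain. The brighter probe set was lower on both knockout arrays, at -1.62 and -2.13. The difference of the brighter probe set was -2.06 without wild type 1 and -1.69 without wild type 2. Fits that leave a lone array in a group give sizes only. With a pseudocount of 64 the brighter probe set had adjusted p = 0.0499 in limma, whereas the mean of the gene's probe sets gave -1.06 and 0.14.

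Of the genes that hold the cell cycle, Cdkn1a and Gadd45a lay on opposite sides. Cdkn1a encodes p21, an inhibitor of cyclin-dependent kinases and the classical mediator of arrest by p53. It was bright in all cultures, with 7811 and 8722 in the knockout arrays, against 5932 and 4017 in the wild-type arrays. Both knockout values were above both wild-type values, and the means were 8266 ± 644 in knockout cells and 4975 ± 1354 in wild-type cells (SD, n = 2 each). The log2 difference was 0.76 ± 0.31, a size of 1.69-fold, and did not pass (adjusted p = 0.21 in limma). With each array left out in turn, the difference ran from 0.48 to 1.04, in fits that leave a lone array in a group and so give sizes only. The dimmer probe set read 1469 and 643 in knockout, against 1024 and 336 in wild type. There the groups overlapped, and the log2 difference was 0.71 ± 0.59.

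Gadd45a, a stress sensor that binds cyclin-dependent kinase and the repair factor PCNA, read 425 and 489 in the knockout arrays, against 946 and 1303 in the wild-type arrays. The knockout values lay close together and below both wild-type values. The log2 difference of -1.26 ± 0.37, or 2.39-fold, had adjusted p = 0.12 in limma and did not pass. The knockout arrays taken singly gave -1.35 and -1.16. Without wild type 1 the difference was -1.48 and without wild type 2 it was -1.03. Fits that leave a lone array in a group give sizes only.

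Ccng1 encodes cyclin G1, which guides a phosphatase to Mdm2, and its 3 probe sets gave different pictures. The brightest read 3785 and 7132 in the knockout arrays, against 5099 and 8624 in the wild-type arrays, where the groups overlapped and the log2 difference was -0.35 ± 0.39 (adjusted p = 0.62 in limma). The middle one read 956 and 914 in knockout, against 1376 and 2148 in wild type. The dimmest read 396 and 238 in knockout, against 550.0 and 1237 in wild type. In both of these the knockout arrays were below the wild-type arrays, with log2 differences of -0.87 ± 0.38 and -1.38 ± 0.48. Neither passed when all probe sets were fitted (adjusted p = 0.26 and 0.19 in limma).

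Btg2, an antiproliferative protein that promotes removal of messenger RNA tails, behaved like Perp across the arrays. Its brighter probe set read 559 and 148 in AhR knockout 1 and 2, against 552 and 508 in wild type 1 and 2. The second read 375 and 172 in knockout, against 379.7 and 413 in wild type. On both probe sets AhR knockout 1 was near the wild-type values and AhR knockout 2 was low. The log2 difference of the brighter one was -0.83 ± 0.54 (adjusted p = 0.40 in limma), made up of 0.0767 in the first knockout array and -1.74 in the second.

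Sesn2 encodes sestrin 2, which restrains the growth kinase mTORC1 when leucine is scarce or cells are stressed. Its brighter probe set read 301 and 228 in the knockout arrays, against 178 and 138 in the wild-type arrays. Both knockout values were higher, with a log2 difference of 0.69 ± 0.37 that did not pass (adjusted p = 0.31 in limma). The dimmer probe set, at 83.8 and 73.8 in knockout and 78.5 and 45.2 in wild type, overlapped between the groups and differed by 0.32 ± 0.38.

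**Figure D2:**
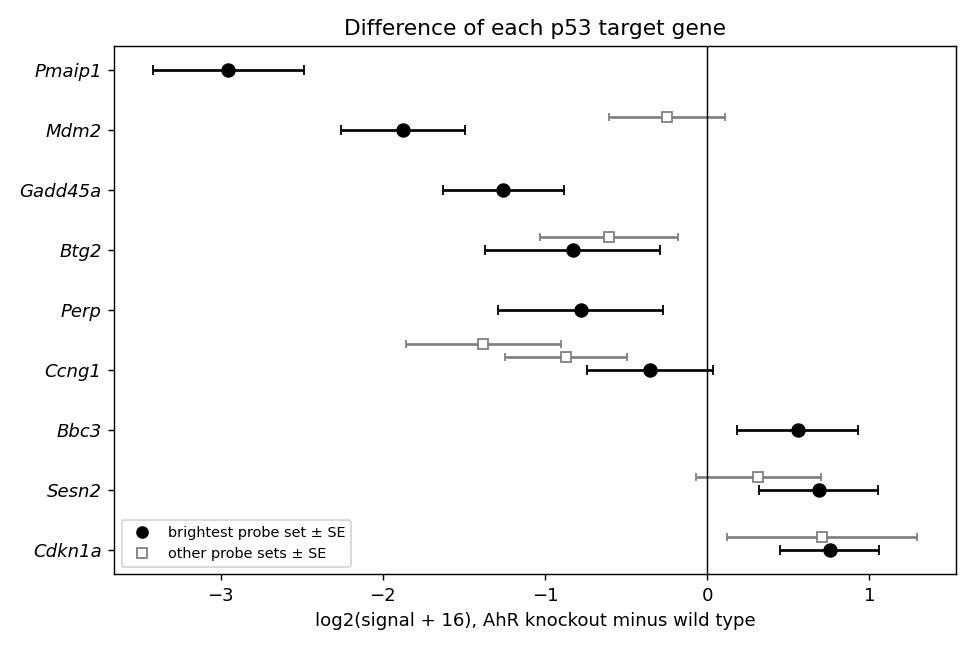
Difference of each measured p53 target gene (AhR knockout minus wild type, log2(signal + 16) scale) with limma's SE (n = 2 each). Black circles are the brightest probe set and open grey squares the other probe sets, and the values run from -2.95 for Pmaip1 to 0.76 for Cdkn1a.

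**Figure D3:**
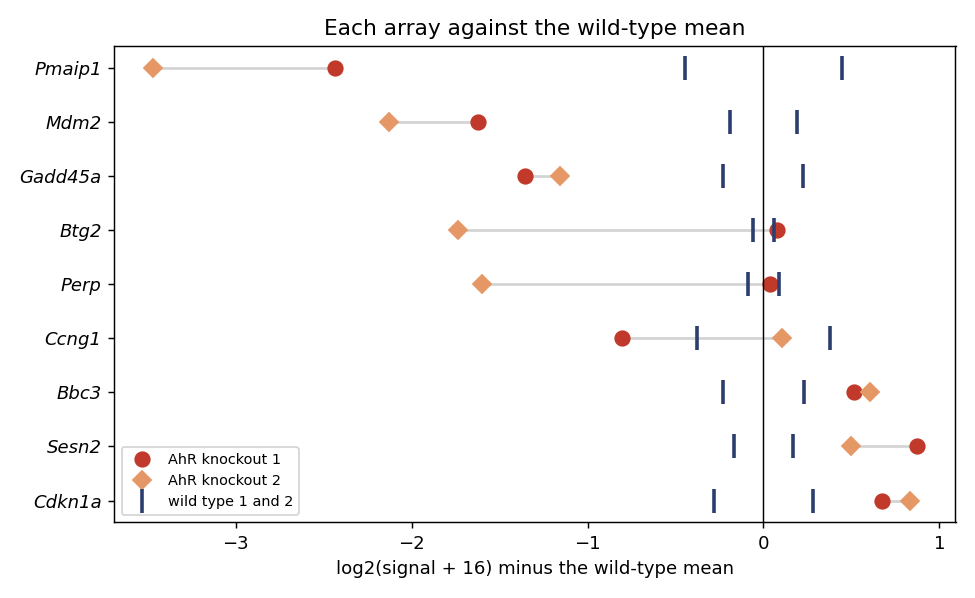
Each array's log2(signal + 16) minus the wild-type mean, for the brightest probe set of each gene, with AhR knockout 1 as red circles, AhR knockout 2 as orange diamonds and the wild-type arrays as blue bars. For Btg2 and Perp AhR knockout 1 sits near 0 and AhR knockout 2 at -1.74 and -1.60, whereas for Pmaip1, Mdm2 and Gadd45a both knockout arrays lie left of the wild-type bars.

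Among the regulators of p53, Sirt1, a deacetylase that acts on p53 among many proteins, fell, and 0 of the others passed in limma. Of 20 listed regulators and relatives 17 were measured, of which 11 were lower and 6 higher, where 43.9% of all 12393 measured genes were lower. Their median log2 difference was -0.30, against 0.0804 over all measured genes. Of the 12 tested, 3 (Sirt1, Mdm4 and Cop1) were lower at an unadjusted p under 0.05, against 12.9% of all tested genes. It read 99.4 and 83.1 in the knockout arrays, against 339 and 420 in the wild-type arrays. The log2 difference of Sirt1 was -1.88 ± 0.36, at adjusted p = 0.048 in limma. Without counting the replicate block and fits with a lone array, it passed in some processing settings and missed in others. It passed with a pseudocount of 64, the mean of probe sets, the trend off and a robust fit. It missed in limma at 0.053 with equal array medians, 0.054 with a pseudocount of 1, 0.059 after quantile normalization and 0.20 with no filter. Mdm4, the partner of Mdm2 that blocks the activating part of p53, read 54.8 and 52.1 in knockout, against 133 and 176 in wild type, with a log2 difference of -1.28 (adjusted p = 0.11 in limma). The knockout mean of Mdm4, 53.5, lay below the lowest tested mean of 81.1, so it was tested through its wild-type values. Cop1, another ubiquitin ligase for p53, differed by -1.30 and Usp7, which removes ubiquitin from Mdm2 and p53, by -0.79, with adjusted p = 0.13 and 0.29. Cdkn2a, the locus whose ARF product holds Mdm2 in check, read 1649.8 and 1308 in knockout, against 1873 and 943 in wild type, and the groups overlapped. The p53 relatives Trp63 and Trp73 were below the filter, with Trp63 at 9.46 to 18.3 on the 4 arrays.

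Further p53 target genes did not move one way. Of 40 listed, 35 were measured and 31 tested, of which 10 were higher and 21 lower, where 49.7% of all tested genes were lower. Their median log2 difference was -0.19, and 0 passed in limma. At an unadjusted p under 0.05 there were 2 higher and 5 lower members, against 7.68% and 12.9% of all tested genes. The lower ones included Fbxw7, a ubiquitin ligase subunit, at -1.40 (adjusted p = 0.10 in limma), Plk2, a polo-like kinase, at -1.23, and Tgfa, a growth factor of the EGF family, at -1.17. Apaf1, the scaffold of the apoptosome, differed by -0.94 and read 331 and 450.4 in knockout, against 655 and 876 in wild type. The higher ones were Bcl2l1, the survival gene for BCL-XL, at 0.99, and Sesn1, a sestrin like Sesn2, at 1.0005. The third sestrin gene, Sesn3, differed by -0.81, with adjusted p = 0.33. Several direct and widely used p53 targets were close to 0, among them Zmat3 at -0.14, Aen at -0.17 and Ei24 at 0.0679. Others lay further out on either side without passing, such as Phlda3 at 0.71, Ddit4 at 0.69, Rrm2b at -0.86 and Trp53inp1 at -0.95. Fas and Sfn were below the filter, at 5.44 to 42.0 and 3.91 to 19.7 on the 4 arrays.

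Of the cell cycle genes that p53 lowers through p21, 0 passed in limma. Of 26 listed, 25 were measured, of which 21 had higher and 4 lower values in the knockout cultures, where 56.1% of all measured genes had higher values. Their median log2 difference was 0.65, against 0.0804 over all measured genes. With no filter, an unadjusted p under 0.05 was found for 7 with higher values and 1 with a lower one, against 6.78% and 8.3% of all measured genes. The filter removed 11 of the 25, and 5 of the 14 it left had a wild-type mean below the lowest tested mean, so it favoured higher values. Among these 5 were Cenpa and Aurka. Cenpa, the centromeric histone, differed by 1.59, Cdc20, an activator of mitotic exit, by 1.57 and Ube2c, a ubiquitin-conjugating enzyme of mitosis, by 1.39 (adjusted p = 0.074, 0.091 and 0.083 in limma). Aurka, a mitotic kinase, differed by 1.15.

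**Figure D4:**
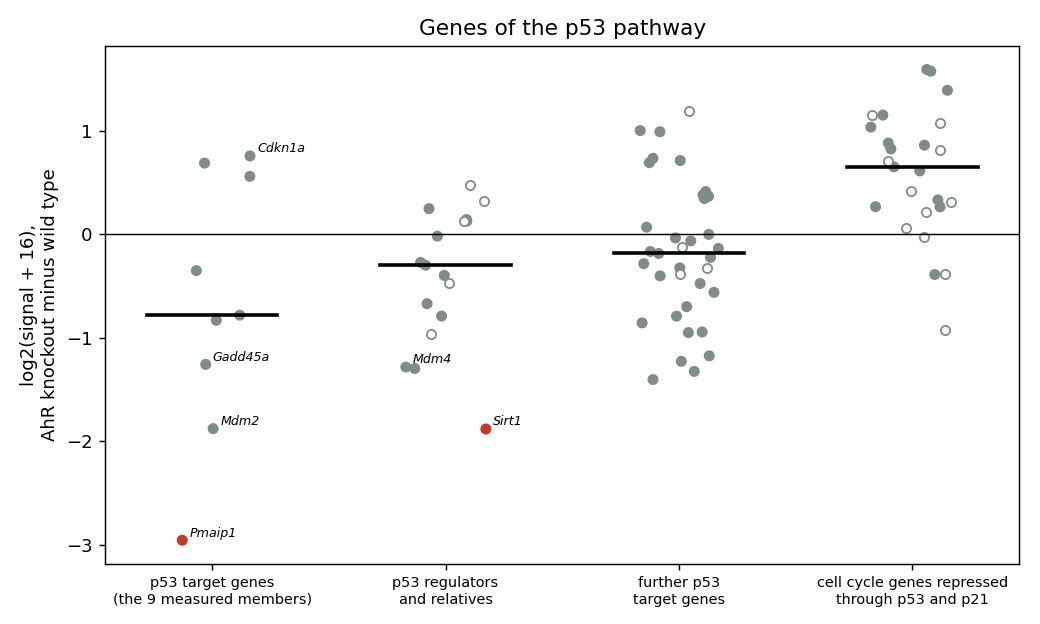
Log2 difference, AhR knockout minus wild type on the log2(signal + 16) scale, of each measured gene in 4 lists of the p53 pathway, with filled points for tested genes, open points for genes below the filter and a black bar at the median of all measured genes of the list. Red points are past an adjusted p of 0.05 in limma (Pmaip1 and Sirt1), and the medians are -0.78, -0.30, -0.19 and 0.65 from left to right.

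Some members also respond to signals other than p53, and the genes of those responses were read beside them. For comparison with the counts below, 49.7% of all tested genes were lower. At an unadjusted p under 0.05, 12.9% of all tested genes were lower and 7.68% higher. Sesn2 and Pmaip1 can be induced by ATF4, the factor of amino acid shortage and endoplasmic reticulum stress. Of 14 tested genes of that response 7 were higher and 7 lower, the median being 0.0397, and 0 passed in limma, with 1 lower at an unadjusted p under 0.05. Atf4 itself differed by 0.72, Psat1 by 0.68 and Atf3 by -1.23 (adjusted p = 0.25, 0.28 and 0.12). Btg2 and Gadd45a can be induced with the immediate early genes, of which 9 of 11 tested were lower and 2 higher, the median being -0.58. Against the wild-type mean that median was -0.16 in AhR knockout 1 and -0.93 in the second knockout array. Of these 0 passed in limma, with 1 lower (Egr1, -1.03) and 1 higher (Nr4a1, 1.34) at an unadjusted p under 0.05. Among relatives of Btg2 and Gadd45a, Btg1 read 5784 and 1963 in knockout, against 6357 and 7153 in wild type, so that it too was lowest in AhR knockout 2. Gadd45b and Gadd45g differed by 0.24 and -0.14. These genes belong to a list of 8 tested genes that also holds sestrins and Ccng2. Btg1, Sesn1, Sesn3 and Ccng2 are counted in other lists above as well. Of the 8 tested, 6 were lower and 2 higher, and 0 passed in limma, with Tob1 lower and Sesn1 higher at an unadjusted p under 0.05.

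Markers of other cells moved as follows beside these results. Of all measured genes, 43.9% had lower and 56.1% higher values. Of 12 measured endothelial markers 11 had lower values, the median being -1.35. At an unadjusted p under 0.05, 7 of the 10 tested were lower, against 12.9% of all tested genes. Sox17 fell by 3.003 on the log2 scale (adjusted p = 0.049 in limma). Apart from the replicate block and fits with a lone array, that call held only at equal array medians and with a pseudocount of 64. It missed in the other processing settings, at 0.066 after quantile normalization and 0.20 with no filter in limma. Over the 10 tested, AhR knockout 1 taken singly had a median of -1.05 and AhR knockout 2 one of -2.43. In the fibroblast list 8 of 10 measured genes had lower values, and 2 of the 4 tested were lower at an unadjusted p under 0.05. Among the lower ones Col3a1 fell by 2.29 on the log2 scale (adjusted p = 0.041 in limma). Of the processing settings it missed at 0.052 with the mean of probe sets, 0.054 after quantile normalization and 0.19 with no filter in limma. The knockout mean of Col3a1, 72.8, lay below the lowest tested mean of 81.1, so it was tested through its wild-type values. Of 10 measured leukocyte markers 7 had higher and 3 lower values (Lyz2 differed by 1.79), with 0 past the threshold in limma and 2 higher at an unadjusted p under 0.05, while the defining Ptprc read 2.06 to 26.1 on the 4 arrays. Of 12 measured keratinocyte markers 10 had higher and 2 lower values, with a median of 0.40. The filter left 4 of them, of which 3 (Krt5, Krt14 and Krt6a) lay above it through AhR knockout 1 alone. In the Schwann and glial list 4 of 7 measured genes had higher values, and in the melanocyte list 9 of 12. In these 3 lists 0 passed in limma. At an unadjusted p under 0.05 among tested genes, 1 keratinocyte marker was higher (Krt6a, 1.64). In the Schwann and glial list 1 was higher (S100b, 1.84) and 1 lower (Ngfr, -1.03). Of the melanocyte markers 3 were higher (Sox10, 1.54, Slc45a2, 1.52, and Tyr, 1.20) and 1 lower (Kit, -1.39). Of all tested genes 7.68% were higher and 12.9% lower at that level. The part of all these markers in the differences of the p53 target genes was not tested.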

How the data were processed

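Amplified, biotin-labelled RNA of 2 AhR knockout and 2 wild-type cultures was read on 1-colour Affymetrix arrays, per the protocols in the labels. The authors deposited signal intensity on a linear scale, made with MAS5 per the submitters' processing notes, with detection calls and background handling not given in the sources used here. Over the middle 96% of values the array means were 499.93 to 499.95. The table has 22690 probe sets: 64 controls, 20380 with a single symbol, 691 with several and 1555 with none. Symbols were updated through gene identifiers to RefSeq (GRCm38.p6), which held 20351 of them. The probe set with the highest mean stood for a gene. Values were converted to log2(signal + 16), which understates folds of dim genes, and the top 60% of genes by mean signal, 7436 in all, were tested.

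Groups, taken from the titles, were compared in R 4.3.3 by limma 3.58.1 (functions lmFit and eBayes, trend on), two-sided, with Benjamini-Hochberg adjustment over all tested genes at 0.05. The script was tested on simulated data. Differences are AhR knockout minus wild type. Both groups number their animals 1 and 2 in the titles, with no shared litter, batch or day stated. The deviations of same-numbered animals correlated at 0.353 over 7436 genes, and with 2 pairs no block was used. Members and lists were chosen with earlier results of these data known. All 9 measured members are named, and of the other lists those past the threshold and up to 4 by smallest p, and further genes named in the text (such as Cdkn2a, Apaf1, Zmat3, Aen, Ei24 and the markers) were chosen after their values were seen. Of the desmosome and p63 list, 6 genes were tested and Dsc2 alone passed. Python 3.11.15 with matplotlib 3.10.9 drew the figures.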

Additional observations from a re-analysis of the deposited data

How the results depend on the processing

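With 2 arrays a group, counts of calls moved far more than the differences. The number of tested genes past the threshold, 71 as reported, was 26 after quantile normalization, 43 with a pseudocount of 1, 1 with no filter, 20 with the top 40% filter, 40 with the mean of probe sets and 364 at an adjusted p under 0.10. The number of p53 target genes past it, 1 as reported, was 0 after quantile normalization, with no filter and with the top 40% filter, and 2 with a pseudocount of 64 and at an adjusted p under 0.10. With the top 40% filter, which left 6 of the 9 members, 1 was higher. With the title number as a replicate block there were 1406 genes, 3 p53 target genes (Mdm2, Pmaip1 and Gadd45a) and 8 further p53 targets past the threshold. With each array left out in turn, in fits where a lone array is assumed to vary like the other group, the calls ran from 20 to 1360, p53 target genes called from 0 to 6, those higher from 3 to 5, their median from -1.16 to 0.0382, and further p53 targets called from 0 to 7. Over the same fits Ccng1 ran from -0.81 to 0.10, and it turned to 0.10 without AhR knockout 1 and to 0.0271 without wild type 2. Without AhR knockout 2, Perp turned to 0.0382 and Btg2 to 0.0767, whereas without AhR knockout 1 they were at -1.60 and -1.74. The causes were not tested. Pmaip1, Mdm2 and Gadd45a were lower and Cdkn1a, Sesn2 and Bbc3 higher under every alternative in which they were tested. The calls of Sirt1, Dsc2, Col3a1 and Sox17 were rerun under these settings after seeing the data, and each kept its sign. No list's median changed sign after quantile normalization or at equal array medians.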

Other observations

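The genes whose pattern over the 4 arrays was most like that of Pmaip1, by root mean square difference of gene-centred log2 values, were Ptgs2 (0.19), Sema3e (0.21) and Map4k5 (0.23). Ptgs2, the inducible cyclooxygenase, read 57.3 and 15.7 in AhR knockout 1 and 2, against 341 and 619.6 in wild type 1 and 2. Sema3e, a guidance signal, read 54.4 and 22.9 in knockout, against 371 and 728 in wild type. Map4k5, a kinase, read 189 and 54.9 in knockout, against 652 and 972 in wild type. On all of these, as on Pmaip1, AhR knockout 2 was the lowest array and wild type 2 the highest. The genes were picked for their likeness to Pmaip1 on these 4 arrays, so the shared order is no separate result. How many other genes are as alike was not counted, and the likeness is given as a description.

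Perp belongs to desmosomes, and among 11 measured desmosome and p63 genes 9 had higher and 2 lower values, where 56.1% of all measured genes had higher values. The filter left 6 of them, 4 higher and 2 lower. Dsc2, the desmosomal cadherin desmocollin 2, fell. It read 37.6 and 14.9 in the knockout arrays, against 183 and 252 in the wild-type arrays. The log2 difference was -2.50 ± 0.41, at adjusted p = 0.036 in limma. Of the processing settings in which Dsc2 was tested, it missed at 0.054 after quantile normalization and 0.19 with no filter in limma. Its knockout mean of 26.2 lay below the lowest tested mean of 81.1, so it was tested through its wild-type values and the size of its difference is uncertain. Jup, plakoglobin, was higher on both knockout arrays at 0.73 without passing (adjusted p = 0.32), and Dsp, desmoplakin, differed by -0.59 with overlapping groups.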
